A study of Mus musculus with 13 samples.

Results

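The regions described here carried H3K27ac and H3K9me3 together, without KAP1, in the murine hepatoma cell line Hepa 1-6. They were selected on the listed positions of 3 ChIP-Seq profiles, being every H3K27ac region that shared at least 1 bp with an H3K9me3 region and none with a KAP1 peak. There were 2180 such members of 57562 H3K27ac regions, that is 3.79%. KAP1 (TRIM28), H3K27ac, H3K9me3 and H3K4me1 were profiled in Hepa 1-6 cells under standard culture, from unperturbed cells. The polymerases PolII and PolIII, which transcribe coding genes and short RNAs such as tRNAs, were profiled in Hepa 1-6 cells that had been transduced 5 days before fixation. These cells had received a control hairpin (an empty vector in the methods of the study) or a hairpin against KAP1 (Kap1 KD). Each antibody and condition was represented by 1 library, no replicate error could therefore be given, and no test over samples was possible. Intervals below are 95% intervals over regions and cover counting error alone, and the sequencing depth is unknown. Because all cells belong to 1 line grown in bulk, the 2 marks at a position may lie on the same or on different chromosomes or cells, which these profiles cannot tell apart.

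H3K27ac is an acetylation found at active enhancers and promoters, where H3K4me1 marks enhancers, active or primed. H3K9me3 marks silenced chromatin and is best known at satellite DNA, transposable elements and clustered gene families. KAP1 is brought to DNA by KRAB zinc finger proteins and recruits SETDB1, a methyltransferase that deposits H3K9me3. Other enzymes, such as SUV39H1 and SUV39H2, deposit the same mark at pericentromeric chromatin without KAP1. As a check of the tissue, 11 of 41 annotated plasma protein and apolipoprotein genes, which hepatocytes express, had an H3K27ac region over the promoter, 26.8% (15.7 to 41.9%), and 9 of 94 cytochrome P450 genes, many of them expressed in liver, 9.57% (5.12 to 17.2%). The share over all protein-coding genes was 20%, which lies within the first interval and above the second.

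The first sequences show where the H3K9me3 region that shares most with a member and the member itself began to overlap. Other H3K9me3 regions cover earlier bases of some of these members. They come from members with the most bases under both marks, and from the next members over a promoter. Each is a stretch of 120 bases of the assembly mm9 (plus strand), with the 60 bases under both marks in capitals and the 60 bases before them in lower case. In the windows on chromosome 3 the lower-case part carried H3K27ac without H3K9me3, and in the window on chromosome 11 it carried H3K9me3 without H3K27ac.
Sprr2a1 side, chr3:92018020-92018139, between genes: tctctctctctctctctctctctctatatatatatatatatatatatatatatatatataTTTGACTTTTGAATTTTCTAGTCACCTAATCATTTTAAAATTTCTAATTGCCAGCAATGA
Sprr2a2, chr3:92052832-92052951, intron: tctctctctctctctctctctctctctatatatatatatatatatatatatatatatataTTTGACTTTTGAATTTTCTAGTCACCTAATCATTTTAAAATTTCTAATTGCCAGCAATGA
Gm10681, chr3:98366855-98366974, intron: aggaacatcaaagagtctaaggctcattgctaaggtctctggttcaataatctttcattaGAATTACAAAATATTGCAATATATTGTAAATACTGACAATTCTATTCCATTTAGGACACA
Sfi1 and Drg1, chr11:3090974-3091093, introns: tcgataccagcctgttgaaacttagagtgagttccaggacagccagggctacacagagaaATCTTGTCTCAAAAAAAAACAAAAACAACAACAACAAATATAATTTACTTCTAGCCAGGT
The windows of Sprr2a1 and Sprr2a2 lie in different copies of a duplicated stretch. They had 119 of 120 bases alike, and all 60 bases under both marks, and in both copies the H3K9me3 region began at the base after a run of TC and TA repeats.

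The second sequences show the copies themselves. Each is the 100-base word, starting inside a member, with the most copies within the largest group of neighbouring members of its chromosome. Capitals mark the bases inside that member.
chrX:30371143-30371242, between genes, 6 copies in the group and 13 in the assembly: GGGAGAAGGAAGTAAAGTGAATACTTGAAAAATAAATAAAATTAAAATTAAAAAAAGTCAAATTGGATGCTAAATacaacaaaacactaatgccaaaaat
chr8:19760102-19760201, between genes, 11 copies in the group and 12 in the assembly: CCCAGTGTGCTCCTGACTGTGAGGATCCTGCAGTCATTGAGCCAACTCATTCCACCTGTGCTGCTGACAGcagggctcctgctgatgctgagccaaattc
chr5:15127417-15127516, coding exon of Speer4d, 7 copies, all in the group: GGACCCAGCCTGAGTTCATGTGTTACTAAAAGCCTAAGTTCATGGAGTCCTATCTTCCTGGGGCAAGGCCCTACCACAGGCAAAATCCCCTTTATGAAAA
chr1:84971417-84971516, between genes, 5 copies in the group and 6 in the assembly: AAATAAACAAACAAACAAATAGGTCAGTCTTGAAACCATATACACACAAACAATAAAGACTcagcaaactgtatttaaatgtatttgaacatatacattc
chr9:3016408-3016507, coding exon of Gm10720, 13 copies, all in the group: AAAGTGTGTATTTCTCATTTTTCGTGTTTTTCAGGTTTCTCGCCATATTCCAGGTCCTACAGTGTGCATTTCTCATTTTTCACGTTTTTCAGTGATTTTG
The 13 copies on chromosome 9 all ran in the same direction, within a group of 38.2 kb. Labels such as coding exon are those of the annotation, in which Gm10720 is a predicted gene. Whether these stretches code for protein was not tested. On chromosome 8, 1 copy ran with the printed strand and 10 ran against it, and on chromosome 5 the numbers were 1 and 6.

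The overlap of both marks was mostly a short H3K27ac region within a longer H3K9me3 region. Since the rule used these positions, they are given as a description. Members were 255 bp wide at the median (quartiles 133.8 to 534 bp), and the bases under both marks numbered 190 at the median (quartiles 98 to 398), from 1 to 13989. H3K9me3 covered 1308 members (60%) from end to end. In 163 members the H3K9me3 region lay inside the H3K27ac region, in 614 the edges crossed, and 95 members overlapped several H3K9me3 regions. Only 161 members had more than 1000 bases under both marks, and 566 had fewer than 100. Summed over all members, 847.2 of 1311 kb lay under both marks.

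Members just inside the rule were few. In 3 members a single base was shared, in chr1:175888346-175888407, in chr14:41867180-41868000 in an intron of Dydc2 and in chrX:31302321-31302493 in an intron of Gm2864, and 23 members shared 10 bases or fewer. Just outside, the H3K27ac region chr15:96101172-96102450 touched an H3K9me3 region without sharing a base, and 14 H3K27ac regions without KAP1 lay within 10 bp of H3K9me3. On the KAP1 side, the member chr4:121866204-121866384 touched a KAP1 peak with no shared base and 9 members lay within 100 bp of one. The non-member chr15:63620950-63620991 had 42 bases under KAP1, the fewest among the 304 regions with all 3. Most members lay far from KAP1, with a gap of 202032 bp at the median (quartiles 79702 to 365777 bp). The gap was 41339 bp at the median for the 47257 H3K27ac regions that overlapped neither H3K9me3 nor KAP1, which serve as the main comparison below.

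Members were concentrated on chromosome X, which held 949 of them (43.5%) against 3.48% of all H3K27ac regions and 8.53% of all H3K9me3 regions. Of the H3K27ac regions of chromosome X, 47.4% were members. Chromosome 1 held 238 members, chromosome 8 held 232, chromosome 5 held 153 and chromosome 15 held 125. On chromosome 8 this was 10.6% of members against 4.9% of H3K27ac regions, but on chromosome 15 it was 5.73% against 6.92%. The lowest counts among chromosomes with a member were 1 on chromosome Y, 8 on chromosome 12 and 12 on chromosome 18. Chromosome Y had only 3 H3K27ac regions, so its share of members was 33.3%. On chromosomes 12 and 18, 0.575% and 0.612% of the H3K27ac regions were members.

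**Figure D1:**
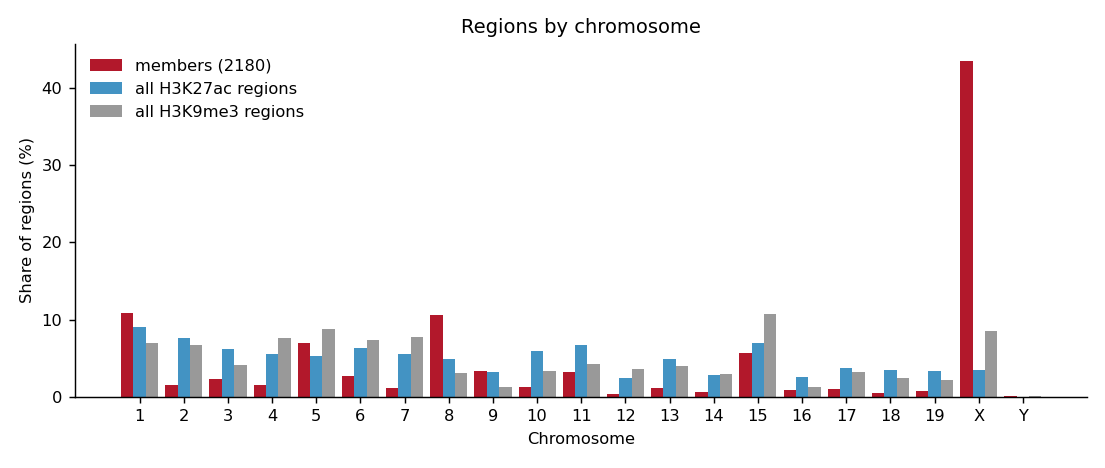
Share of regions (%) on each chromosome, with bars from 0 for the 2180 members (red), all 57562 H3K27ac regions (blue) and all 66242 H3K9me3 regions (grey). Chromosome X held 43.5% of members and 3.48% of H3K27ac regions.

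Within the chromosomes members lay in dense groups. When members no more than 100 kb apart were joined, a distance chosen after the positions had been seen, they formed 437 groups, of which 345 held a single member. Groups of 10 or more members, here called clusters, numbered 23 and held 1618 members (74.2%) within 5.81 Mb of an assembly of 2655 Mb. Of these clusters 8 lay on chromosome X, with 912 members. Most members of the clusters lay between genes, and 324 of the 1618 (20%) overlapped a protein-coding gene, introns included. The largest, chrX:30272560-31133439, held 214 members and spans 6 coding genes, Gm2784, Gm2790, Gm2799, Gm5926, Gm2825 and the germ cell-less homologue Gmcl1l, but only 2 of its members lay over a gene. The next, chrX:31863157-32200757, held 175 members. On chromosome 8 the cluster chr8:19681982-20035877 held 150 members, 38 of them over Gm6483, 4930467E23Rik or Gm15319. On chromosome 5 the cluster chr5:14900008-15221726 held 123 members and spans 7 coding genes, among them Speer4c, Speer4d and Speer4e, of a glutamate-rich protein family expressed in testis, with 14 members over a gene. Chromosome 1 had a cluster of 117 members, 79 of them over C130026I21Rik, within which A530032D15Rik lies. Another had 66 members, 36 of them over Sp110, Sp140 or Sp100, which encode interferon-induced proteins of nuclear bodies. The cluster at the start of chromosome 9, chr9:2999981-3038225, packed 64 members and 12 predicted coding genes into 38.2 kb. The cluster of chromosome 11 held 50 members, 44 of them over Sfi1, which encodes a centrosomal protein, or the end of Drg1, which encodes a GTP-binding protein. The cluster of chromosome 3 held 19 members, 16 of them over Sprr2a1, Sprr2a2 or Sprr2a3, whose products are small proline-rich proteins of the cornified envelope of skin.

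The cover of the clusters by each list is given as a description, since clusters are runs of members and the rule chose members for H3K27ac and H3K9me3 and against KAP1. H3K9me3 covered 46.9% of their sequence against 1.56% of the assembly, and H3K27ac 18.3% against 1.9%. H3K4me1, which the rule did not use, covered 55.8% against 2.69%, 20.8 times the share of the assembly. KAP1 covered 0.714% of the clusters against 0.612% of the assembly, unevenly. No KAP1 peak lay in 17 of the 23 clusters, while the cluster chr6:47602649-47716051 had 12 peaks over 11.1% of its sequence and the cluster at Myo10 on chromosome 15 had 5 peaks over 9.23%. Control PolII covered 0.194% against 0.3% and Kap1 KD PolII 0.913% against 0.664%. By number, the clusters held 4.82 control PolII peaks per Mb against 1.89 over the assembly and 25.7 Kap1 KD PolII peaks per Mb against 4.84, few of which overlapped a member. Over the cluster of Sfi1 and Drg1, H3K9me3 covered 93.3%, H3K4me1 93.6% and H3K27ac 77.9% of the sequence. The histone marks had been called with another program than KAP1 and PolII, and only for the latter is the use of the input as control stated. The part of this difference in calling was not tested.

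**Figure D2:**
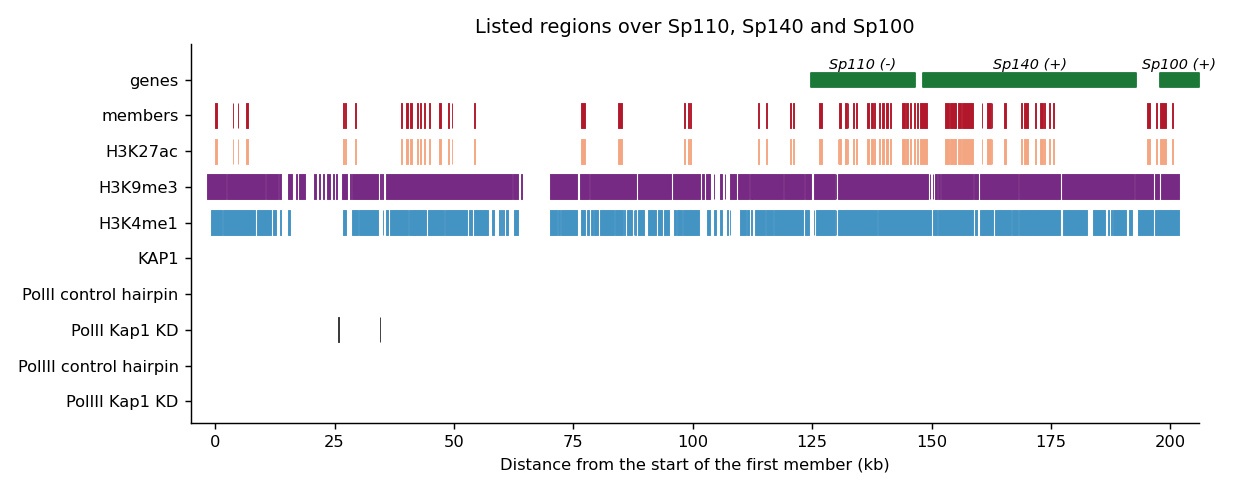
Listed regions over the cluster of 66 members at Sp110, Sp140 and Sp100, by distance (kb) from the start of the first member, with genes and their strand on top and narrow regions drawn at a minimum line width. H3K9me3 covered 84.8% and H3K4me1 71.9% of the cluster, H3K27ac covered 13.2%, the track of KAP1 is empty and PolII under Kap1 KD had 2 peaks.

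The members' sequence was mostly present in several copies in the assembly. This was measured as the share of words, starting every 5 bases in a region, that mm9 holds more than once on either strand. Of the 32-base words of a member, 94.4% were repeated at the median (quartiles 77.3 to 100%), against 0% at the median in the comparison regions, where the upper quartile was 3.72%. For words of 100 bases, the read length, the median was 66.7% in members and 0% in comparison regions. At least 1 repeated 100-base word occurred in 84.6% of members (83.1 to 86.1%), in 10.3% of all H3K27ac regions and in 6.83% (6.6 to 7.06%) of the comparison regions. The difference was 77.8 percentage points (76.2 to 79.3). H3K27ac regions with both H3K9me3 and KAP1 stood between them, at 39.8% (34.5 to 45.4%). A member's 32-base words had 6 copies at the median (quartiles 3 to 15.5), with a mean over members of 481.5. The upper quartile was 14 copies in the clusters and 251 outside them.

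H3K9me3 regions were rich in repeated words with or without H3K27ac. The 59105 H3K9me3 regions that overlapped neither H3K27ac nor KAP1 had 87% of their 32-base words repeated at the median, and the 1374 regions that shared most with a member had 89.2%. For 100-base words the medians were 32.3% and 50.6%. Read the other way, among H3K27ac regions without KAP1 the share that were members was 0.431% (0.372 to 0.499%) where under 10% of the 32-base words were repeated. It was 2.56% (2.16 to 3.04%) from 10 to 50%, 41.5% (39 to 44.1%) from 50 to 90% and 53.8% (51.8 to 55.8%) from 90%. How reads with several placements were handled is not given in the sources used here, and its part in the calls was not tested.

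**Figure D3:**
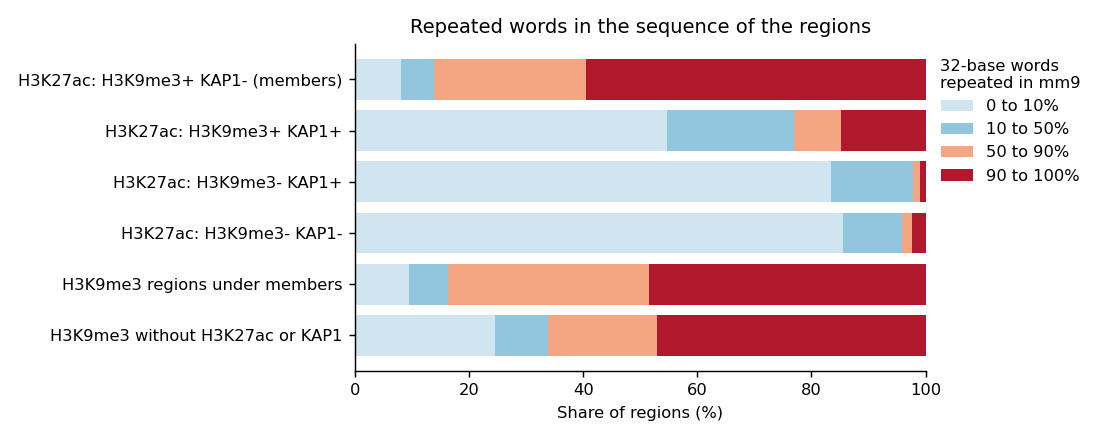
Share of regions (%) by the percentage of their 32-base words that mm9 holds more than once, for the 4 classes of H3K27ac regions and for H3K9me3 regions with a member and without H3K27ac or KAP1. At least 90% of the words were repeated in 59.5% of members and in 2.36% of H3K27ac regions without H3K9me3 and KAP1.

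The other copies lay mostly on the same chromosome. In the 23 clusters together, 97548 of 176174 member words of 100 bases (55.4%) were repeated, and for 97.7% of the repeated words every copy in the assembly lay on the same chromosome. For 38.3% every copy lay within the same cluster. This share was 98.6% in the cluster of chromosome 9, 95.7% in the Speer4 cluster, 94.7% in the Sprr2a cluster and 74.2% in the cluster of chromosome 8 with Gm15319. In the 5 largest clusters of chromosome X it was at most 6.92%, while at least 97.8% of their repeated words had every copy on chromosome X. A minority of clusters had hardly any repeated words. In the cluster at Sfi1 and Drg1 the share was 1.33%, in that at Ano6 on chromosome 15 it was 0.415%, at Myo10 0.642%, and in those at Slc38a1 and at the Ugt1a genes, Hjurp and Trpm8 it was 0.

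Members had fewer CpG dinucleotides than the comparison regions, relative to their base content. The ratio of observed to expected CpG was 0.124 at the median (quartiles 0 to 0.232) in members and 0.193 (0.11 to 0.303) in comparison regions, and the GC content was 38.7% against 41.5%. The lower ratio came with the clusters: its mean was 0.153 in members of clusters and 0.233 in the 562 members outside, against 0.228 in the comparison regions.

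H3K4me1, the enhancer mark, was present in nearly all members. It overlapped 2085 of 2180 members, 95.6% (94.7 to 96.4%), against 64.7% (64.3 to 65.1%) of the comparison regions and 67.8% of all H3K27ac regions. The difference from the comparison regions was 31 percentage points (29.9 to 31.8). H3K4me1 covered 80% of members from end to end and 23.2% of the comparison regions, and 1198 members (55%) lay wholly under both H3K9me3 and H3K4me1. In clusters the share with H3K4me1 was 99.6% (99.1 to 99.8%) and outside them 84.3% (81.1 to 87.1%). Members exceeded the comparison regions at every level of repeated words. Under 10% of repeated 32-base words the shares were 83.4% (77.2 to 88.2%) and 65.3% (64.9 to 65.8%), and from 90% they were 97% (95.9 to 97.8%) and 57.2% (54.3 to 60.1%). The H3K9me3 regions that shared most with a member overlapped H3K4me1 in 92.5% of cases (91 to 93.8%), against 7.65% (7.44 to 7.87%) of H3K9me3 regions without H3K27ac and KAP1. Since the first were picked through H3K27ac, with which H3K4me1 overlaps widely, this last contrast holds no comparison of H3K9me3 alone.

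PolII was rare in members. In control cells it overlapped 27 members, 1.24% (0.853 to 1.8%), against 5.22% (5.02 to 5.42%) of the comparison regions and 8.65% of all H3K27ac regions. Under Kap1 KD it overlapped 70 members, 3.21% (2.55 to 4.04%), against 13% (12.7 to 13.3%) and 18.1%. The differences from the comparison regions were -3.98 (-4.41 to -3.39) and -9.76 percentage points (-10.5 to -8.89). Under 10% of repeated 32-base words, control PolII overlapped 3.43% of members (1.58 to 7.28%) and 5.45% of comparison regions (5.23 to 5.68%). Kap1 KD PolII overlapped 13.1% (8.92 to 18.9%) and 13.4% (13 to 13.7%) there. From 90% the control shares were 0.694% (0.365 to 1.31%) and 2.34% (1.6 to 3.4%), and under Kap1 KD 2% (1.37 to 2.92%) and 7.55% (6.14 to 9.25%). In the clusters 6 and 5 of 1618 members had PolII. Outside them 21 of 562 members, 3.74% (2.46 to 5.64%), had PolII in control and 65, 11.6% (9.18 to 14.5%), under Kap1 KD. The differences from the comparison regions were then -1.48 (-2.78 to 0.439) and -1.41 points (-3.82 to 1.51), with both intervals including 0. H3K27ac regions that carried KAP1 were overlapped by PolII more often, in control 15.5% (11.8 to 20%) with H3K9me3 and 31.2% (30.2 to 32.3%) without.

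**Figure D4:**
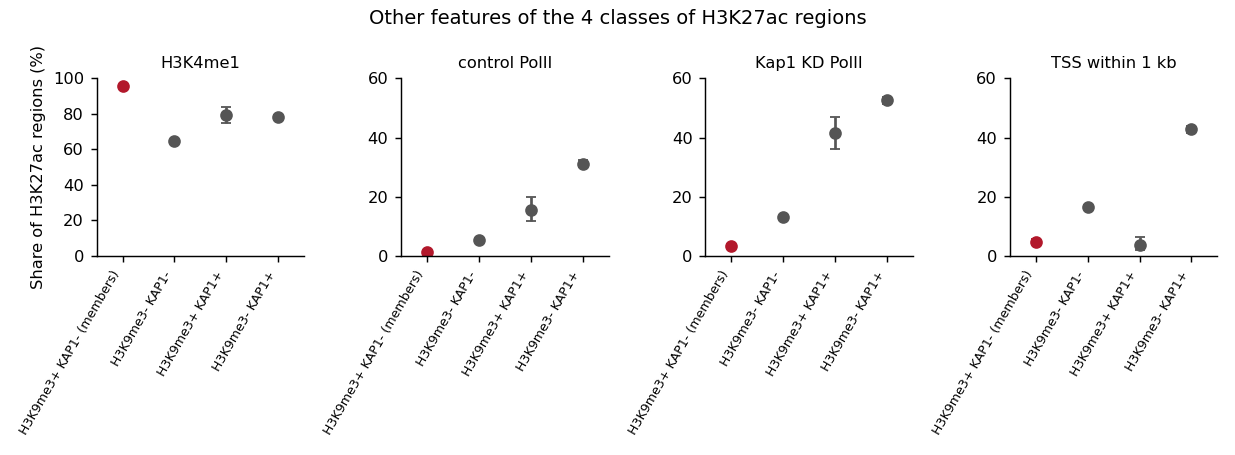
Share (%) of H3K27ac regions in each of the 4 classes that overlapped H3K4me1, control PolII or Kap1 KD PolII, or whose centre lay within 1 kb of a TSS. Points are shares and bars 95% Wilson intervals over regions (1 library each), and members (red) were highest for H3K4me1 at 95.6% and lowest for control PolII at 1.24%.

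Between conditions the number of members with PolII went from 27 to 70, a ratio of 2.59. The same ratio was 2.49 in the comparison regions and 2.1 over all H3K27ac regions, and the Kap1 KD list is the longer, with 12862 peaks against 5015. PolII overlapped 17 members in both conditions, 10 in control alone and 53 under Kap1 KD alone. When the Kap1 KD list was reduced to its highest-scoring peaks, as many as in control, it overlapped 23 members. With 1 library per condition this difference could not be tested. Chromosome 15 held 17 of the 70 members with PolII under Kap1 KD (24.3%) and 8 of the 27 in control (29.6%). It held 5.73% of all members and 6.92% of all H3K27ac regions, and its share of the PolII lists was not computed.

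**Figure D5:**
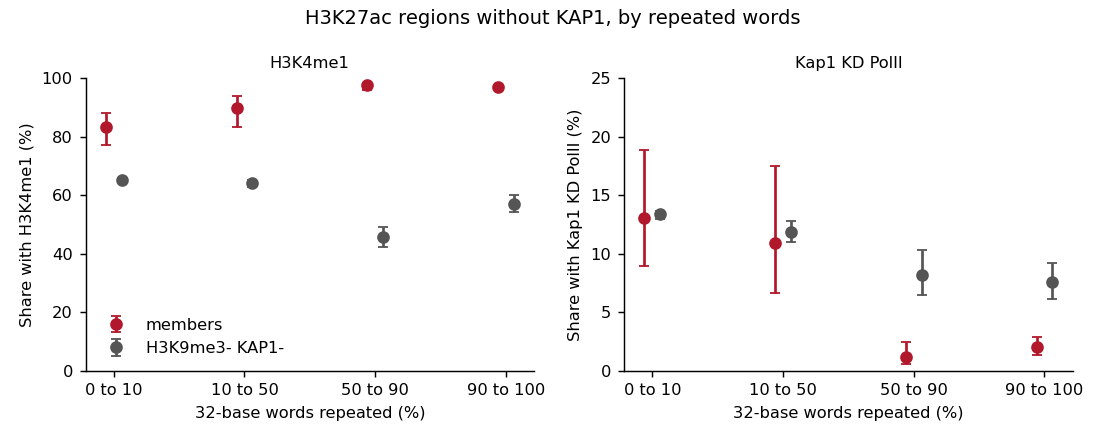
Share (%) of H3K27ac regions without KAP1 that overlapped H3K4me1 (left) or Kap1 KD PolII (right), by the percentage of repeated 32-base words, for members (red) and regions without H3K9me3 (grey), with 95% Wilson intervals. Kap1 KD PolII overlapped 13.1% of members and 13.4% of the others under 10% of repeated words, and 2% and 7.55% from 90%.

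The members with control PolII and most bases under both marks lay in 4 places. The member chrX:123292249-123314512, between genes, was 22264 bp wide with 3074 bases under H3K9me3, 319 under control PolII and 880 under Kap1 KD PolII. The member chr15:25418771-25421136, between genes and 0.543 kb from a KAP1 peak, had 1893 bases under H3K9me3 and 418 under PolII in control alone. The member chr15:12976388-12977633, in an intron of Cdh6, which encodes a cadherin, lay wholly under H3K9me3, with PolII over 635 bases in control and 662 under Kap1 KD. In an intron of Oxr1, which protects cells from oxidative damage, the member chr15:41413620-41436199 had 1126 bases under H3K9me3 in 22580, and 1388 and 2375 under PolII. PolII was counted over the whole member. Where H3K9me3 covered only a part, whether PolII lay on that part was not examined.

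PolIII overlapped 9 members in control, 0.413% (0.217 to 0.783%), against 0.152% (0.121 to 0.192%) of the comparison regions and 0.455% of all H3K27ac regions. Under Kap1 KD it overlapped 2 members, 0.0917% (0.0252 to 0.334%), against 0.0466% (0.0307 to 0.0705%) and 0.281%. The control list held 86.3% of its 2772 peaks on chromosomes 1 to 3, a share between 16.9 and 22.9% in the other lists, and 5 of the 9 members lay on these chromosomes. The members with most bases under both marks were chr3:98286375-98286658 and chr3:98339867-98340096 near Hsd3b4 and Gm10681, both wholly under H3K9me3 and PolIII with all 32-base words repeated and no H3K4me1. PolIII was present in both conditions at 1 member, chr3:44366720-44366803, of 84 bp, 815516 bp from Pcdh10. The member chr10:71759902-71760028 had PolIII under Kap1 KD alone, and its 32-base words had 65138 copies at the median with a GC content of 8.66%.

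Fewer members than comparison regions lay near genes. A transcription start site (TSS) of a protein-coding gene lay within 1 kb of the centre in 106 members, 4.86% (4.04 to 5.85%), against 16.7% (16.4 to 17.1%) of the comparison regions and 19.8% of all H3K27ac regions. The difference from the comparison regions was -11.9 percentage points (-12.8 to -10.8). It was -1.6 points (-2.03 to -1.02) for a centre within 250 bp of a TSS and -3.88 (-4.45 to -3.16) for overlap with a promoter. Between genes lay 75.5% of members (73.7 to 77.3%) and 46.9% of comparison regions (46.5 to 47.4%), and in introns 18% (16.4 to 19.6%) and 34.7% (34.2 to 35.1%). Of H3K27ac regions with H3K9me3 and KAP1, 3.62% (2.03 to 6.36%) lay near a TSS, and the members' difference from them was 1.24 points (-1.62 to 3.11), an interval that includes 0.

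Of 22367 protein-coding genes 43 (0.192%) had a member over the promoter, that is within 250 bp of its annotated 5′ end, and 221 (0.988%) had one over the gene. Among the 43, 22 carry predicted names of the form Gm with a number, and 12 of these lie together at the start of chromosome 9. The share of such names over all coding genes was not computed, so the 22 cannot be read as many or few. The gene with most members was C130026I21Rik on chromosome 1 with 79, followed by Sfi1 with 42 and Gm2864 on chromosome X with 29. Sp110 and Sp140 had 17 each, Slc38a1, which encodes a glutamine transporter, had 10, and Ano6, which encodes a phospholipid scramblase, had 8. The members over a promoter with the most bases under both marks, counted over the whole member, lay over promoters of the Sprr2a genes and then of Sfi1, Gm10681, Sp140 and Hjurp. Over the Sfi1 promoter the member chr11:3091034-3096927 lay wholly under H3K9me3 and H3K4me1, with 5894 bases under all 3 marks and 7.72% of 32-base words repeated. Over the Sp140 promoter the member chr1:87496225-87497898 lay wholly under H3K9me3, with 86% of 32-base words repeated. The member chr1:90171297-90174099 over the promoter of Hjurp, which loads the centromeric histone CENP-A, had 1557 of 2803 bases under H3K9me3 and no repeated word. Its H3K9me3 region ended at position 90172853, inside the gene, and did not reach the promoter. Hjurp lies on the minus strand, with its 5′ end at 90174208. None of these promoter members overlapped PolII or PolIII in either condition.

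Among the gene lists chosen for this tissue and for KAP1, a member lay over the promoter of 1 gene, Zfp960, of 365 zinc finger genes named Zfp, and of no gene of the other 11 lists. Over the gene itself there were members in Zfp960 and Zfp37, in Cyp2c29, a cytochrome P450 of liver, of 94 P450 genes, and in Tnfrsf23, which encodes a decoy receptor for TRAIL, of 51 imprinted genes. None of 24 clustered protocadherin, 41 plasma protein and apolipoprotein, 35 liver transcription factor, 75 ribosomal protein, 67 replication-dependent histone, 67 heat shock, 25 immediate early or 37 KAP1 partner and heterochromatin genes, nor any of 6 annotated abundant noncoding RNA genes, had a member over the promoter or the gene. Over all coding genes these shares were 0.192% and 0.988%, as given above. At shares this low, lists of 6 to 365 genes are too short to show a lack of members.

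The 6 members with the most bases under both marks lay in 3 clusters of repeated sequence. On chromosome 3 the member chr3:92011833-92028606, over Sprr2a1 and Sprr2a2, had 13989 of 16774 bases under H3K9me3. The member chr3:92051920-92066179, over Sprr2a2 and Sprr2a3, had 13636 of 14260, and chr3:92076413-92089694, in an intron of Sprr2a3, had 13062 of 13282. The fourth of this cluster, chr3:92044654-92051802, lay wholly under H3K9me3 over 7149 bases. All 4 had between 89.7 and 99.4% of 32-base words repeated, with 3 copies at the median, and overlapped neither PolII nor PolIII. The others were chrX:32106186-32116162, with 9977 bases under H3K9me3, H3K4me1 and H3K27ac alike, and chr8:20011474-20020160, with 8383 of 8687 bases under H3K9me3.

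Single H3K9me3 regions also held many members. The region chr8:19916494-19984050 over Gm15319, 67557 bp wide, held 31 members, the most of any. On chromosome X the regions chrX:3192718-3230577, chrX:4250595-4270736, chrX:4230631-4246669 and chrX:4656209-4675577 held 28, 22, 21 and 20. None of the 5 overlapped a KAP1 peak, and between 63.7 and 94.3% of their 32-base words were repeated.

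A smaller set of members held no repeated word of 100 bases. These were 335 members (15.4%), against 93.2% of the comparison regions. Shorter repeats occurred among them: 162 had under 10% of their 32-base words repeated and 26 had at least 90%, with a median of 11.3%. Chromosome 15 held 86 of them (25.7%, against 6.84% of comparison regions without such a word), chromosome 11 held 49, chromosome 1 held 45 and chromosome X held 25. H3K4me1 overlapped 293 of them, 87.5% (83.5 to 90.6%), against 64.6% (64.1 to 65%) of comparison regions of the same kind. Control PolII overlapped 5 of them, 1.49% (0.639 to 3.45%), against 5.16% (4.96 to 5.37%), and Kap1 KD PolII 24, 7.16% (4.86 to 10.4%), against 12.8% (12.5 to 13.1%). The 4 with the most bases under both marks, named after their values were seen, were 3 in the cluster of Sfi1, with 5894, 3410 and 3384 bases, and chr15:96444507-96450673 in an intron of Slc38a1, with 5023.

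The members of chromosome 1 without a repeated 100-base word included all 13 of the cluster chr1:90109877-90187445, which spans the shared 3′ part of the Ugt1a genes, whose products conjugate bilirubin and drugs in liver, then Heatr7b1, Hjurp and the start of Trpm8, which encodes a cold-sensing channel. Over its 77.6 kb H3K9me3 covered 88.1%, H3K4me1 89.6% and H3K27ac 12.2%, and all 13 members carried H3K4me1. The cluster held no KAP1 peak and 1 PolII peak under Kap1 KD. The cluster of Slc38a1, 63.2 kb, held 11 members without a repeated 100-base word, with 81% under H3K9me3, 89.1% under H3K4me1 and 31.9% under H3K27ac. On the same chromosome the cluster at Ano6 had 15 members, 8 of them over a coding gene, and that at Myo10, which encodes an unconventional myosin, had 10, of which 3 lay over the gene, with H3K9me3 over 29.1 and 9.23% of their sequence.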

How the data were processed

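Hepa 1-6 cells were profiled by ChIP-Seq (13 samples, 8 with a list). According to the study's methods, Bowtie placed the reads on mm9, KAP1 and PolII peaks were called with MACS against total input, and histone mark regions with ChIP-Part. The caller of PolIII and the options are not given in the sources used here. The authors deposited positions for the histone marks, and positions with a score for KAP1 and the polymerases. The scores were used only to shorten the PolII lists. The 5 inputs, for which no list was given, were not analysed here.

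Positions lay within mm9 (NCBIM37), whose sequence and GENCODE M1 annotation were used, and are given from 1. Overlap meant 1 bp or more. Shares carry 95% Wilson intervals and differences 95% Newcombe intervals, over regions and not over samples. Words were counted over all chromosomes and both strands (Python 3.11.15, numba 0.67.0, pysam 0.24.0), with overlaps, intervals and word counts tested on simulated data. The members, gene lists and rules were chosen with earlier results of these data known. Named were the 6 members with most bases under both marks, the 6 such over a promoter, the 5 H3K9me3 regions with most members, the 4 such members with control PolII and with PolIII, those nearest the limits of the rule, and list genes with a member over the promoter. Clusters and 100-base words were added after the data were seen. A share of masked repeats could not be computed, as the assembly used here is not masked.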

Additional observations from a re-analysis of the deposited data

Results flagged for a closer look

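The number of members with PolII was higher by 43 under Kap1 KD than in control (70 against 27), while the number with PolIII went from 9 to 2, a difference of -7. These opposite directions for the 2 polymerases drew attention, with 1 library per condition, and the difference was not tested. They were not particular to members: over all H3K27ac regions PolII went from 4981 to 10443 and PolIII from 262 to 162. The control PolIII list also held 86.3% of its peaks on chromosomes 1 to 3. The PolII lists held 5015 and 12862 peaks and the PolIII lists 2772 and 431.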

How the results depend on the processing

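The values below are members minus comparison regions, in percentage points for shares and repeated words (mean percentage) and as a mean for the CpG ratio. As reported they were 31 for H3K4me1, -3.98 for control PolII, -9.76 for Kap1 KD PolII, -11.9 for the TSS, -0.0543 for the CpG ratio and 74.1 for repeated 32-base words. Of 63 alternative values 25 stayed within the interval of the reported value (within 1.5 times for the number of members), 37 moved out of it with the same direction and 1 changed direction. The cause was not tested. With 100 bp or more shared with H3K9me3 the values were 32.3 (H3K4me1), -10.7 (Kap1 KD PolII) and -0.0651 (CpG), and with at least 0.5 of the member under H3K9me3 they were 32.4, -4.71 (control PolII), -11.4 and 76.5 (words). Without chromosome 15 they were 32.4 (H3K4me1) and 77.3 (words). Without chromosome X, chosen after seeing the data, 1231 members remained and the values were 27.3 (H3K4me1), -8.04 (Kap1 KD PolII), -8.54 (TSS), -0.0158 (CpG) and 65.1 (words). Without the clusters, also chosen after seeing the data, 562 members were left, and the values were 19.7 (H3K4me1), -1.48 (control PolII), -1.41 (Kap1 KD PolII), -12.8 (TSS), 58.8 (words) and, in the opposite direction, 0.0054 for the CpG ratio. Among regions without a repeated 100-base word, members and comparison alike, they were 22.9, -5.6 (Kap1 KD PolII), -10.5 (TSS) and -0.0127 (CpG). Against comparison regions standardised to the members' widths they were 40.4 (H3K4me1), -2.92, -6.67 and 69.6 (words), and with regions cut to 500 bp -3.14, -7.56 and 70.4. With the PolII lists above their median score the PolII values were -3.13 and -8.23, and with the Kap1 KD list reduced to the length of control -7.05. With the centre within 250 bp of a TSS the value was -1.6, and with words of 100 bases 56. The planned share of masked repeats was not run. No paired analysis was possible because each antibody and condition has 1 library. The lists hold no read counts, so no depth could limit or scale a value here, and no library could be left out.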
